A study of Mus musculus with 6 samples.

Results

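The haemoglobin and erythroid genes described here are the adult alpha globin genes *Hba-a1* and *Hba-a2*, the adult beta globin genes *Hbb-bs* and *Hbb-bt*, and *Alas2*, the erythroid form of the enzyme that starts haem synthesis. They were chosen by symbol, with no measured value in the rule, and all 5 symbols were found among the 55341 genes of the deposited count table. RNA of the aorta was sequenced from 3 mice lacking miRNA-26b (miRNA-26b-/-, called KO below) and 3 wild-type mice (miRNA-26b+/+, called WT, labelled naive), 1 library per mouse, to ask which transcripts differ without this miRNA. Per the study's methods, the mice were 8 weeks old, on chow diet and on the C57BL/6 background (C57BL/6NCrl in the labels). The KO allele was made in 129/Sv embryonic stem cells, deleted with tamoxifen through CreERT2 and then bred free of CreERT2. The study's results describe the strains first bred from these cells as mixed 129/Sv and C57BL/6. After blood was drawn from behind the eye, the circulation was flushed with saline and the arch and thoracic part of the aorta were taken. Mice are numbered here within each group only to name them.

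Haemoglobin carries oxygen in red cells and is built from alpha chains and beta chains, each holding a haem group. In the bone marrow, erythroblasts fill with globin RNA under the transcription factors Gata1, Klf1 and Tal1, and *Alas2* supplies haem at the matching pace. Red cells lose their nucleus before they enter the blood, and the youngest of them, the reticulocytes, still hold globin RNA. Globin reads from a perfused vessel are therefore commonly read as a measure of the blood left in it, although alpha globin has also been described in the endothelium of small arteries. In such bulk RNA, fewer cells of a type and less RNA per cell cannot be told apart.

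In the GENCODE M21 annotation of GRCm38, *Hba-a1* (ENSMUSG00000069919) spans 32283511 to 32284465 of chromosome 11 (forward strand), and *Hba-a2* (ENSMUSG00000069917) follows it from 32296489 to 32297298. *Hbb-bs* (ENSMUSG00000052305) and *Hbb-bt* (ENSMUSG00000073940), the beta pair of the C57BL/6 haplotype, lie on the reverse strand of chromosome 7 from 103826534 to 103828096 and from 103812524 to 103813996. Each globin gene has 3 exons. *Alas2* (ENSMUSG00000025270) has 11 exons in its longest coding transcript and spans 150547375 to 150570638 of chromosome X, also forward. All 5 are protein-coding.

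The stretch upstream of each gene shows what sets the globin genes apart from *Alas2*. The 30 bases from 50 to 21 bases before the RefSeq start (GRCm38.p6, strand of the gene) are printed here, with TATAA and CACCC (or its reverse complement GGGTG) in capitals.
Hba-a1, chr11:32283622-32283651, forward: ggaggacacgcccttggagggcaTATAAgt
Hba-a2, chr11:32296442-32296471, forward: ggacacgcccttggagggcaTATAAgtgct
Hbb-bs, chr7:103827949-103827978, reverse: ggcaggagccagggcagagcaTATAAggtg
Hbb-bt, chr7:103813944-103813973, reverse: gggcaggagccagcattgggtaTATAAagc
Alas2, chrX:150547367-150547396, forward: aggcggaaggGGGTGGGGTGGGGTGggcgg
TATAA begins 27 to 30 bases before the start in all 4 globin genes and is not in this window of *Alas2*, where GGGTG stands 3 times in a row. Of 32851 RefSeq promoters, 4.04% hold TATAA in this window on the strand of the gene.

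The next stretch, from 95 to 66 bases before the start, differs between the alpha genes, the beta genes and *Alas2*. In capitals are CCAAT and CACCC, and for GATAA its reverse complement TTATC.
Hba-a1, chr11:32283577-32283606, forward: aaaccagCCAATgagaactgctccaagggc
Hba-a2, chr11:32296397-32296426, forward: ccagCCAATgagaactgctccaagggcgtg
Hbb-bs, chr7:103827994-103828023, reverse: agccaCACCCtggtaagggCCAATctgctc
Hbb-bt, chr7:103813989-103814018, reverse: gggtaaCACCCtggcattggCCAATctgct
Alas2, chrX:150547322-150547351, forward: ctttgctttTTATCtttagcagaggcctga
CCAAT lies in this window in all 4 globin genes, against 3.60% of all promoters. Both beta genes also carry CACCC there, the core of the letters known to be bound by Klf1, and *Alas2* carries TTATC, the reverse of the GATAA core known to be bound by Gata1. Over the whole 300-base promoter and both strands, GATAA and CACCC were found in all 5 genes, beside 25.4% and 57.5% of all promoters. These matches describe letters and do not show that a factor is bound.

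The paralogs are nearly the same gene to a read. The coding sequences of *Hba-a1* and *Hba-a2* differed at 1 of 426 bases, and those of *Hbb-bs* and *Hbb-bt* at 1 of 441. The 297 promoter bases of the alpha pair that can be laid side by side differed at 0. Of all stretches of 50 bases in the main transcript, 32.5% were unique to *Hba-a1*, 13.1% to *Hba-a2*, 34.2% to *Hbb-bs* and 41.7% to *Hbb-bt* among all annotated transcripts; at 150 bases the shares were 51.6%, 34.3%, 41.3% and 49.3%. The remaining stretches occurred in the other gene of the pair. The authors' counting call does not ask for reads that map to several places, so the globin counts rest on the unique stretches, understate each gene to a different degree, and leave the split within a pair uncertain. *Alas2* was 86.2% unique at 50 bases. It shares 311 exonic bases with *Apex2*, a DNA repair gene on the opposite strand, and 61 with the hairpin gene *Mir3620*. Reads were counted without strand and for every gene they overlap, so *Alas2* and *Apex2* reads cannot be told apart over the shared bases. *Apex2* held 100 to 718 counts per library and *Mir3620* 0 in all 6.

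The 3′ UTRs of these genes were searched for the seed match of miR-26b-5p; the other arm of the hairpin and the rest of the transcripts were not searched. Mature miR-26b-5p (chr1:74394324-74394344, forward, GRCm38.p6, RefSeq) is shown with its seed, bases 2 to 8, in capitals.
miR-26b-5p: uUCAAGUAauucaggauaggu
The seed match TACTTGA was found at 0 places in the longest annotated 3′ UTR of each of the 5 genes, which are 77 to 150 bases long, against 9.66% of 21824 genes, whose median 3′ UTR is 1036 bases.

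The libraries held 25706728 to 33345037 counts assigned to genes. The hairpin gene *Mir26b* had 20 counts in WT mouse 2 and 0 in the other 5 libraries, so the count table cannot check the genotype through it. The labels name aortic endothelial cells. Summed over 10 endothelial markers, however, the libraries held 610 to 2030 CPM (counts of a gene per 1000000 counts of its library), and over 8 smooth muscle markers 34915 to 45710 CPM. The methods describe the vessel, not isolated cells. The library of KO mouse 2 stands apart. Its 10 sympathetic neuron markers summed to 547 CPM, against 83.5 to 167 in the other 5, and its 7 atrial muscle markers to 362 CPM, with 303 in WT mouse 2 and 18.5 to 73.1 in the rest. Both lists were chosen after seeing the data. The fits of the 5 genes and the counts of most lists are therefore given with and without KO mouse 2.

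All 5 genes were detected in every library, and none differed between KO and WT beyond the spread between mice. Their levels spanned a 9.40-fold to 28.6-fold range among the 3 KO mice, with KO mouse 1 the highest and KO mouse 2 the lowest of all 6 for each gene. The counting error was at most 11.8% for any value (*Alas2* in KO mouse 2, 72 counts) and covers counting alone, since copies made by PCR were not told apart from separate molecules.

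*Hbb-bs* had the highest level. It measured 428, 42.4 and 295 CPM in KO mice 1, 2 and 3, and 246, 137 and 271 CPM in WT mice 1, 2 and 3. KO mice 1 and 3 lay above all WT mice and KO mouse 2 lay below them, so the groups overlapped. The means were 255 ± 196 CPM in KO and 218 ± 71.4 in WT (SD, n = 3 each). The fitted log2 fold change (KO minus WT) was 0.20 ± 0.49 (SE; edgeR's quasi-likelihood test, adjusted p = 0.976).

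*Hbb-bt*, the other adult beta globin gene, measured 93.6, 9.90 and 41.9 CPM in KO mice 1, 2 and 3 and 57.8, 44.4 and 80.7 CPM in WT mice 1, 2 and 3. Here only KO mouse 1 exceeded the WT mice, and KO mouse 3 lay just under the lowest of them. The means were 48.4 ± 42.2 CPM in KO and 60.9 ± 18.3 in WT. The log2 fold change was -0.40 ± 0.47 (edgeR, adjusted p = 0.934).

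*Hba-a1* measured 199, 16.5 and 100 CPM in KO mice 1, 2 and 3 and 103, 90.1 and 139 CPM in WT mice 1, 2 and 3. KO mouse 3 lay within the WT range. The means were 105 ± 91.5 CPM in KO and 111 ± 25.5 in WT, with a log2 fold change of -0.12 ± 0.49 (edgeR, adjusted p = 0.991).

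*Hba-a2*, which encodes nearly the same alpha chain, measured 143, 15.2 and 87.7 CPM in KO mice 1, 2 and 3 and 62.1, 62.5 and 91.0 CPM in WT mice 1, 2 and 3. KO mouse 3 again lay within the WT range, close to its upper end. The means were 82.0 ± 64.1 CPM in KO and 71.9 ± 16.6 in WT, and the log2 fold change was 0.14 ± 0.46 (edgeR, adjusted p = 0.988).

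*Alas2* measured 61.8, 2.16 and 34.5 CPM in KO mice 1, 2 and 3 and 24.2, 15.6 and 39.2 CPM in WT mice 1, 2 and 3. Its 72 counts in KO mouse 2 were fewer than the 188 counts of the overlapping *Apex2* in that library. The means were 32.8 ± 29.9 CPM in KO and 26.3 ± 11.9 in WT, and the log2 fold change was 0.23 ± 0.60 (edgeR, adjusted p = 0.980).

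**Figure D1:**
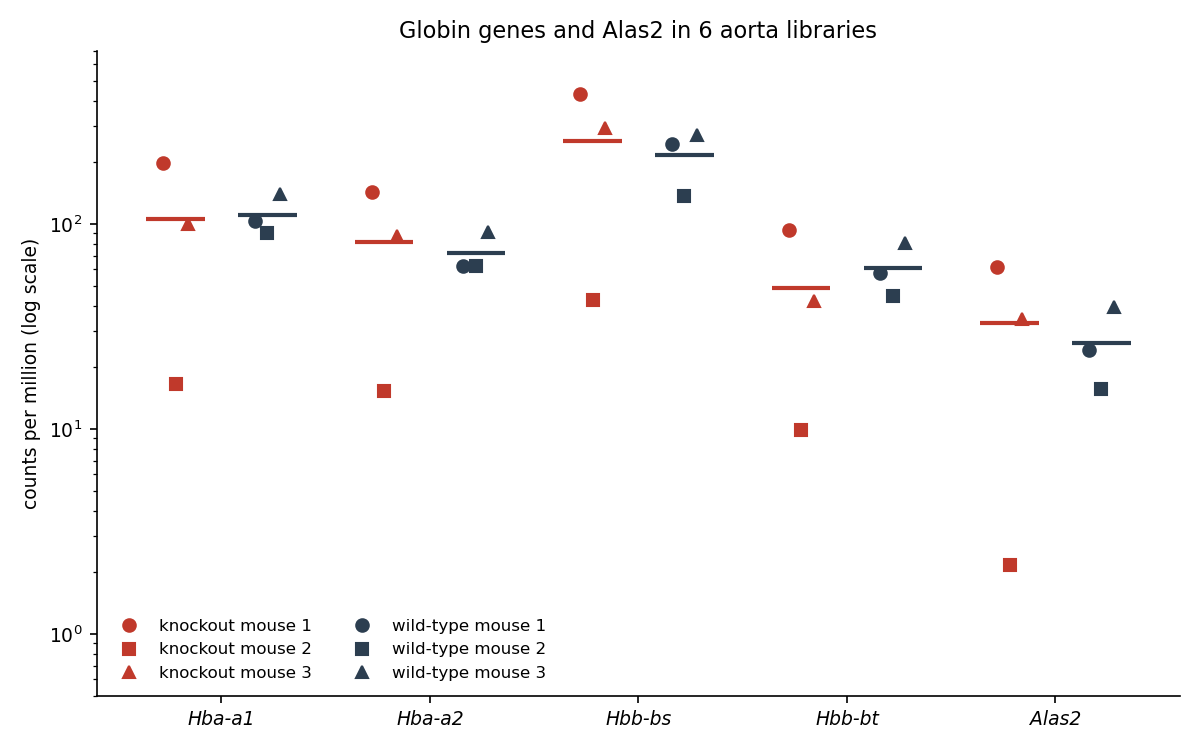
Level of each gene in each library, in CPM on a log scale, with a horizontal bar at the arithmetic mean of each group (3 mice each). KO mouse 2 is the lowest and KO mouse 1 the highest point for all 5 genes, and the WT mice lie between them.

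Exact permutation tests of the log2 CPM of single genes (two-sided, 3 against 3 mice, which cannot go below p = 0.1) gave p = 0.6 for *Hbb-bt*, 0.8 for *Hba-a1*, 0.9 for *Hba-a2* and *Alas2*, and 1 for *Hbb-bs*. In edgeR's fit, 0 of the 5 genes passed an unadjusted p of 0.05, against 6.47% of the 16017 genes tested, and 0 passed after adjustment, against 0.00624% (1 gene). The median log2 fold change of the 5 genes was 0.14, and that of all genes tested 0.01. The intervals are wide. The 95% interval of the log2 fold change ran from -0.84 to 1.25 for *Hbb-bs*, from -1.40 to 0.61 for *Hbb-bt*, from -1.17 to 0.93 for *Hba-a1*, from -0.85 to 1.13 for *Hba-a2* and from -1.04 to 1.501 for *Alas2*. A doubling of *Hbb-bs*, *Hba-a2* or *Alas2*, or a halving of *Hbb-bt*, *Hba-a1* or *Alas2*, thus lay inside the interval.

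The sign of several of these values turned with the mouse left out. Without KO mouse 2, all 5 log2 fold changes were above 0 and the SE of each was smaller. *Hbb-bs* then stood at 0.72 ± 0.24, *Alas2* at 0.84 ± 0.35, *Hba-a2* at 0.66 ± 0.25, *Hba-a1* at 0.41 ± 0.26 and *Hbb-bt* at 0.13 ± 0.31. The unadjusted p was 0.00902 for *Hbb-bs*, 0.0163 for *Hba-a2* and 0.0286 for *Alas2* in edgeR's test, so 3 of the 5 genes were higher in KO at that level, against 2.72% of the 15598 genes tested. In either direction 5.76% were past that level, and 3.03% were lower. None of the 5 passed after adjustment, against 0.00641% of all genes, 1 gene (edgeR, adjusted p = 0.857 for *Hbb-bs*, *Hba-a2* and *Alas2*, 0.882 for *Hba-a1* and 0.986 for *Hbb-bt*). The 5 genes move together across libraries and are not independent observations. Without KO mouse 1 instead, *Hbb-bs*, *Hba-a2* and *Alas2* fell below 0, at -0.41, -0.55 and -0.64. Leaving out KO mouse 2 after seeing its values is a choice made with the result known, and the fit on all 6 libraries is the reported one.

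**Figure D2:**
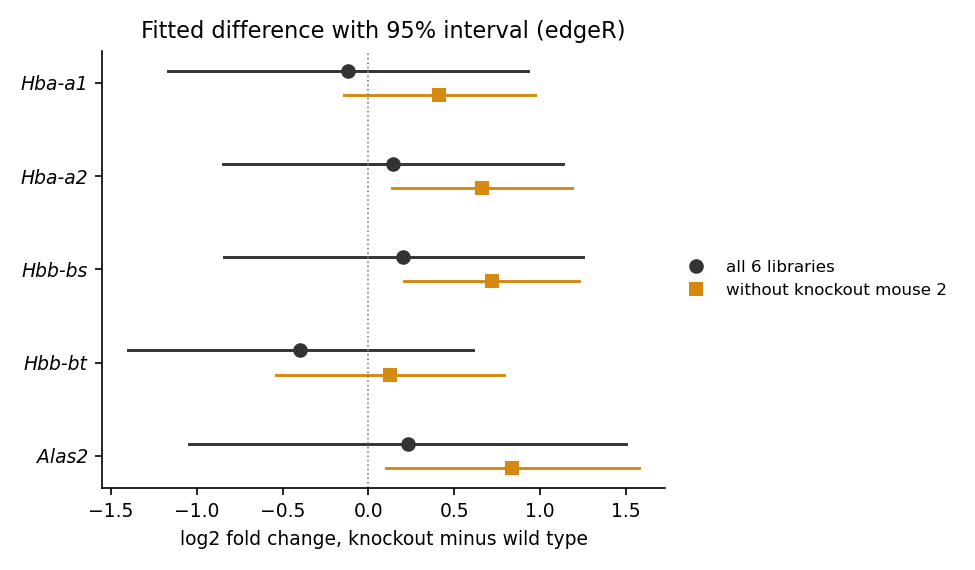
Fitted log2 fold change (KO minus WT) of each gene with its 95% interval from edgeR, on all 6 libraries (circles) and without KO mouse 2 (squares). Every interval on 6 libraries spans 0; without KO mouse 2 all 5 estimates lie above 0, and those of *Hba-a2*, *Hbb-bs* and *Alas2* have intervals above 0 before adjustment over all genes.

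Such a spread is rare among well-measured genes of these libraries. Over the 9760 other genes with a mean of at least 10 CPM, the highest KO mouse exceeded the lowest by a median of 1.43-fold. As wide a range as that of *Alas2* (28.6-fold) was seen in 8 of them, that of *Hba-a1* (12.1-fold) in 13, that of *Hbb-bs* (10.1-fold) in 23, and those of *Hba-a2* (9.40-fold) and *Hbb-bt* (9.45-fold) in 27 each. Among the WT mice the ranges were 1.47-fold to 2.51-fold, against a median of 1.35-fold, and 29.0% of the 9760 genes were at least as wide as *Hba-a1* and 3.85% as wide as *Alas2*. KO mouse 2 held 5.45 times less *Hba-a1*, 4.08 times less *Hba-a2*, 3.23 times less *Hbb-bs*, 4.49 times less *Hbb-bt* and 7.24 times less *Alas2* than the lowest WT mouse. It was the lowest library for 15.4% of the 9760 genes.

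Summed over the 4 globin genes, the libraries held 864, 84.0 and 525 CPM in KO mice 1, 2 and 3, and 469, 334 and 582 CPM in WT mice 1, 2 and 3. Globin thus took 0.0864% of all counts in KO mouse 1, 0.00840% in KO mouse 2 and 0.0334% in the lowest WT library. The mean was 491 ± 391 CPM in KO and 462 ± 124 in WT, a ratio of 1.06, or 1.05 with TMM scaling. The ratio was 1.49 without KO mouse 2 and 0.648 without KO mouse 1, both with TMM scaling.

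Among the KO mice, the alpha to beta ratio was steadier than the globin level. Among the WT mice this was less clear. Alpha to beta globin counts stood at 0.656, 0.608 and 0.558 in KO mice 1, 2 and 3 and at 0.545, 0.842 and 0.655 in WT mice 1, 2 and 3, with means of 0.607 ± 0.0491 and 0.681 ± 0.150. WT mouse 2 was the highest and the other 5 lay within 0.545 to 0.656. KO mouse 2, with 2802 globin counts against 22219 in KO mouse 1, had an alpha to beta ratio between those of the other KO mice.

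Within the pairs, *Hba-a1* took 58.2%, 52.0% and 53.4% of alpha globin counts in KO mice 1, 2 and 3, and 62.5%, 59.0% and 60.5% in WT mice 1, 2 and 3. The 3 KO values lay below the 3 WT values, although the intervals of KO mouse 1 (57.2% to 59.2%) and WT mouse 2 (57.6% to 60.5%) overlapped (Wilson, 95%, counting error only). *Hbb-bs* took 82.1%, 81.1% and 87.6% of beta globin counts in the KO mice and 81.0%, 75.5% and 77.1% in the WT mice. Here KO lay above WT by a margin smaller than the counting error, since the interval of KO mouse 2 ran from 79.2% to 82.8% and that of WT mouse 1 from 80.1% to 81.8%. These shares come from the stretches unique to each gene, whose extent differs within a pair. They were examined after the values were seen and were not tested.

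*Alas2* fell further than globin in KO mouse 2. It had 71.5, 25.7 and 65.7 counts per 1000 globin counts in KO mice 1, 2 and 3 and 51.6, 46.8 and 67.3 in WT mice 1, 2 and 3. *Alas2* followed the order of summed globin in all 6 libraries: Pearson's r of log2 CPM was 0.998 and Spearman's rho 1 (n = 6, a description, since the libraries share their depth with both measures). The r was 0.980 over the 4 libraries left without KO mice 1 and 2, the 2 farthest from the median globin level. *Alas1*, the form of the same enzyme used by other tissues, measured 38.8 to 79.7 CPM and was highest in KO mouse 2. Of the counts of both enzymes, *Alas2* made up 51.7%, 2.64% and 44.8% in KO mice 1, 2 and 3 and 25.9%, 18.3% and 50.2% in WT mice 1, 2 and 3.

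**Figure D3:**
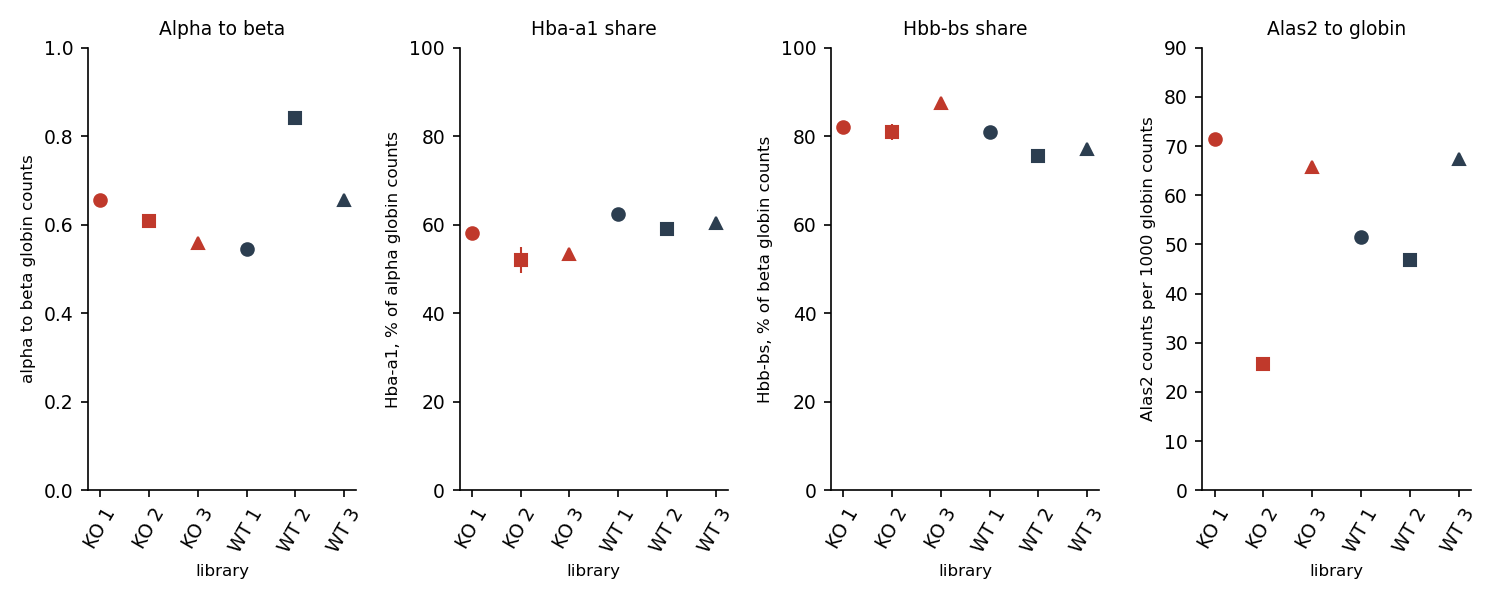
From left to right: alpha to beta globin counts, the *Hba-a1* percentage of alpha globin counts, the *Hbb-bs* percentage of beta globin counts, and *Alas2* counts per 1000 globin counts, 1 point per library. Vertical lines in the middle panels are Wilson 95% intervals; *Alas2* per globin is 25.7 in KO mouse 2 and 46.8 to 71.5 in the other libraries.

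Per kilobase of the deposited gene length and per 1000000 counts (RPKM), the mean level over the 6 libraries was 308 for *Hbb-bs*, 133 for *Hba-a1*, 115 for *Hba-a2*, 77.8 for *Hbb-bt* and 12.3 for *Alas2*. *Hbb-bs* was the highest and *Alas2* the lowest in each library. *Hba-a1* and *Hba-a2* changed places between mice: *Hba-a2* was the higher in KO mouse 2 (22.8 against 20.4 RPKM) and KO mouse 3 (131 against 124 RPKM). *Hbb-bt* was below both alpha genes in every library. These levels understate each gene by the reads that could not be placed within its pair.

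Genes that mark red cell precursors were at or near 0. *Gata1*, *Gfi1b* and *Rhag* had 0 counts in all 6 libraries and *Klf1* at most 0.036 CPM. The embryonic globin genes *Hbb-y*, *Hbb-bh0* and *Hbb-bh2* and the theta globin genes *Hbq1a* and *Hbq1b* had 0 counts everywhere, and *Hba-x* and *Hbb-bh1* at most 0.036 CPM. A count of 0 allows a level of up to 3 counts per library. *Hbb-b1*, *Hbb-b2* and *Ahsp* were not analysed here.

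Other globins did not share the pattern of the 5 genes. *Cygb*, cytoglobin of fibroblasts and vessel walls, measured 123 to 195 CPM (67.3 RPKM on average) with a log2 fold change of 0.22 ± 0.17 (edgeR, adjusted p = 0.875) and of 0.21 without KO mouse 2. *Mb*, the myoglobin of heart and skeletal muscle, was at 38.4 CPM in KO mouse 2 and 44.5 in WT mouse 2, and at 0 to 6.30 in the other 4, as the atrial muscle markers were. Its log2 fold change was -0.07 on 6 libraries and -2.48 without KO mouse 2 (edgeR, adjusted p = 0.857). *Ngb*, neuroglobin, reached 4.14 CPM in KO mouse 2.

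The haem synthesis list held 13 genes, all tested, of which 0 passed an unadjusted p of 0.05 in either direction (6.47% of all genes tested), with a median log2 fold change of -0.01. Its highest genes per length were *Tmem14c* (a mitochondrial porphyrin transporter, 38.4 to 71.5 CPM), *Urod* (uroporphyrinogen decarboxylase, 27.5 to 41.1 CPM) and *Alas1*. Summed CPM of the list ranged from 302 to 391 in KO and from 299 to 399 in WT, and KO mouse 2, at 365, lay within both ranges. Without KO mouse 2, *Alad*, the enzyme after Alas, was the member with an unadjusted p under 0.05 (log2 fold change 0.96; edgeR, adjusted p = 0.857). That is 1 of 13 tested, beside 2.72% of all genes tested that were higher in that fit.

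Of 18 red cell membrane and skeleton genes, 12 were tested and 1 was lower in KO at an unadjusted p of 0.05, beside 3.07% of all genes tested. That gene was *Ank1*, ankyrin of the red cell membrane, also used in muscle. It measured 2.29, 4.20 and 5.05 CPM in KO mice 1, 2 and 3 and 9.50, 10.3 and 12.1 CPM in WT mice 1, 2 and 3. The groups did not overlap, with a log2 fold change of -1.46 ± 0.47 (edgeR, adjusted p = 0.736; exact permutation test, two-sided, p = 0.1, the smallest possible). It did not follow the globin genes, which were highest in KO mouse 1. The highest genes of the list per length were *Aqp1* (a water channel also of endothelium, 365 to 483 CPM), *Cd59a* (46.8 to 73.2 CPM) and *Xk* (74.8 to 97.5 CPM), all with adjusted p of 0.923 or more in edgeR's test.

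Of 11 erythroid regulators, 6 were tested and 1 was lower in KO, beside 3.07% of all genes tested. *Tal1*, shared by red cell precursors and endothelium, measured 4.59, 1.29 and 4.16 CPM in KO mice 1, 2 and 3 and 7.91, 12.1 and 9.67 CPM in WT mice 1, 2 and 3. Its groups did not overlap either (log2 fold change -1.64 ± 0.53; edgeR, adjusted p = 0.736). *Ldb1*, *Zbtb7a* and *Lmo2*, the highest of the list per length, had log2 fold changes of 0.12, -0.06 and -0.16.

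Among 18 late erythroid and reticulocyte genes, 14 were tested and 1 was higher in KO, beside 3.4% of all genes tested. *Tent5c*, a poly(A) polymerase also of plasma cells, measured 96.6, 62.4 and 77.5 CPM in KO mice 1, 2 and 3 and 63.3, 30.4 and 42.6 CPM in WT mice 1, 2 and 3. KO mouse 2 lay just under WT mouse 1, so the groups overlapped (log2 fold change 0.77 ± 0.25; edgeR, adjusted p = 0.736). *Cat* (catalase), *Prdx2* (peroxiredoxin 2) and *Bnip3l* (mitochondrial clearance), the highest per length, had log2 fold changes of -0.08, 0.06 and -0.01. In KO mouse 2 *Prdx2* stood at 124 CPM and *Cat* at 160 CPM, the highest of the 6 libraries for both. *Bnip3l*, at 51.8 CPM there, was at its lowest of the 6. Of the 11 genes of this list with over 3 counts in every library, 3 were lowest in KO mouse 2. That mouse was the lowest for 15.4% of the 9760 genes with a mean of at least 10 CPM.

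Among 12 genes of haemoglobin and iron clearance, 11 were tested, 1 was higher and 1 lower, beside 3.4% and 3.07% of all genes tested. *Hp*, haptoglobin, which binds free haemoglobin and is also made by fat cells, measured 213, 377 and 134 CPM in KO mice 1, 2 and 3 and 156, 189 and 75.7 CPM in WT mice 1, 2 and 3 (log2 fold change 0.78 ± 0.33; edgeR, adjusted p = 0.741). KO mouse 2 was its highest library, and without that mouse the log2 fold change was 0.30, with an unadjusted p of 0.317. The sum of 7 brown fat markers, chosen after seeing the data, was also highest in KO mouse 2, at 505 CPM against 154 to 420; its part in the *Hp* value was not tested. *Cp*, ceruloplasmin, measured 68.9, 65.0 and 140 CPM in KO mice 1, 2 and 3 and 137, 144 and 112 CPM in WT mice 1, 2 and 3 (log2 fold change -0.54 ± 0.24; edgeR, adjusted p = 0.754). The ferritin genes *Fth1* and *Ftl1*, which store iron, had log2 fold changes of -0.01 and 0.07. *Hmox1*, haem oxygenase, measured 6.78 CPM in KO mouse 2 and 8.09 to 14.6 CPM in the others. Of the 3 methaemoglobin reduction genes, *Cyb5r3*, *Cyb5a* and *Cyb5b*, 0 passed an unadjusted p of 0.05, against 6.47% of all genes tested. Without KO mouse 2, the counts at that level were 1 lower of 11 tested for the membrane list (*Ank1*), 1 lower of 6 for the regulators (*Tal1*), 1 higher of 13 for the late erythroid genes (*Tent5c*) and 0 of 11 for clearance, beside 2.72% of all genes tested that were higher and 3.03% that were lower in that fit.

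Markers of the other blood cells were low, and their sums did not have the order of the globin genes. Platelet markers (12 genes) summed to 55.0, 42.4 and 55.7 CPM in KO mice 1, 2 and 3 and to 37.6 to 42.9 CPM in WT. Their highest gene per length, *Pf4*, platelet factor 4, measured 9.88, 7.11 and 22.7 CPM in KO mice 1, 2 and 3 and 6.57 to 11.5 CPM in WT. *Gp1bb* measured 35.8, 27.9 and 14.6 CPM in KO mice 1, 2 and 3 and 16.1 to 22.4 CPM in WT. Of 7 tested, 0 passed an unadjusted p of 0.05, against 6.47% of all genes tested. Without KO mouse 2, 1 of 7, *Alox12*, was higher at that level, beside 2.72% of all genes tested in that fit. Neutrophil markers (13 genes) summed to 11.05, 11.9 and 15.7 CPM in KO mice and 20.95 to 29.3 CPM in WT mice, without overlap. *S100a9* (0, 1.44 and 2.87 CPM in KO against 3.67, 7.11 and 8.37 in WT) and *Lcn2*, 2 of 6 tested, were lower in KO at an unadjusted p of 0.05, beside 3.07% of all genes tested, at adjusted p of 0.736 and 0.769 in edgeR's test. Without KO mouse 2, *Lcn2* no longer passed that level, *S100a9* did, and *S100a8* passed it as well. That made 2 of 6 tested lower, beside 3.03% of all genes tested in that fit. KO mouse 1, the library with the most globin, thus had the lowest neutrophil sum. Lymphocyte markers (12 genes) summed to 17.8, 10.4 and 21.3 CPM in KO and 14.6 to 21.5 in WT, with KO mouse 2 the lowest of the 6. *Ighm*, an antibody heavy chain and the highest of them per length, measured 7.94 to 14.8 CPM. The B cell gene *Cd79b* reached 3.97 CPM in KO mouse 1 and 0.033 CPM at most in WT. It was the 1 of 6 tested that was higher in KO at an unadjusted p of 0.05, with and without KO mouse 2. Of all genes tested, 3.4% were higher in the fit on 6 libraries and 2.72% without KO mouse 2. Monocyte markers (7 genes) summed to 106 to 147 CPM in KO and 157 to 200.7 CPM in WT, of which *Vcan*, a matrix gene also of the vessel wall, made up 103 to 139 and 148 to 197 CPM.

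The summed endothelial markers, to which *Pecam1* and *Vwf* gave the most, were lowest in KO mice 1 and 2, which stood at opposite ends for globin. The 10 markers summed to 610, 685 and 2030 CPM in KO mice 1, 2 and 3 and to 1457, 1915 and 1703 CPM in WT mice 1, 2 and 3. *Pecam1*, the adhesion molecule of endothelial junctions, measured 184, 176 and 724 CPM in the KO mice and 495 to 622 CPM in the WT mice. *Vwf*, von Willebrand factor, measured 103, 108 and 610 CPM in KO and 395 to 593 CPM in WT. Not all markers had this order: *Kdr*, a receptor for vascular growth factor, was 21.9, 29.8 and 8.92 CPM in KO mice 1, 2 and 3, and *Eng*, endoglin, 102, 151 and 157 CPM. At an unadjusted p of 0.05, *Tek* and *Eng*, 2 of 10 tested, were lower in KO, beside 3.07% of all genes tested (log2 fold changes -0.998 and -0.41; edgeR, adjusted p = 0.745 and 0.741). Without KO mouse 2, *Tek* stood at -0.60 and no longer passed that level, and *Eng* did. That left 1 of 10 tested lower, beside 3.03% of all genes tested in that fit. Smooth muscle markers, among them *Acta2* and *Tagln*, summed to 0.855 to 1.12 times the WT mean in all libraries. The part of these cell types in the globin values was not tested.

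**Figure D4:**
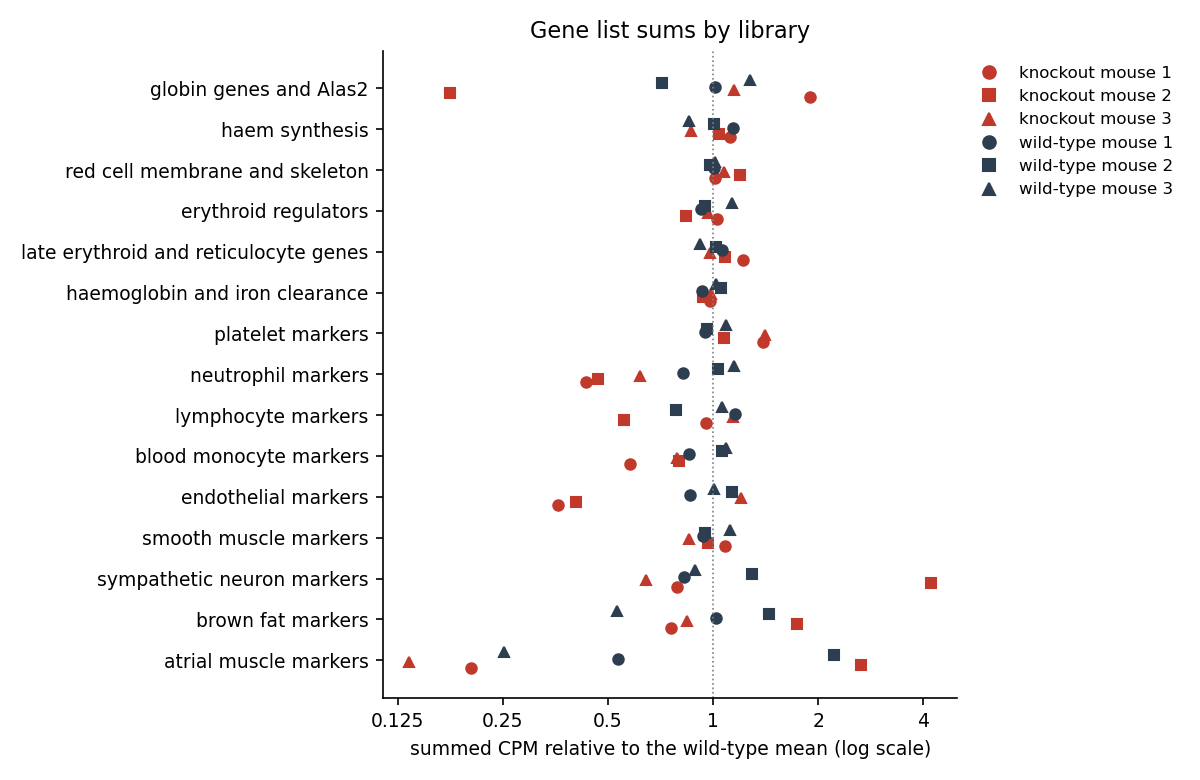
Summed CPM of each gene list in each library relative to the WT mean (log scale), 1 point per mouse. The 5 globin and erythroid genes run from 0.177 in KO mouse 2 to 1.90 in KO mouse 1. The summed haem synthesis, red cell membrane, regulator, late erythroid and clearance lists stay within 0.835 to 1.22 in every library. A sum follows its most abundant genes, such as *Fth1* for clearance (2365 to 3002 CPM). Of the genes with over 3 counts in every library, KO mouse 2 was lowest for 3 of 13, 1 of 9, 3 of 5, 3 of 11 and 4 of 10 in these lists, in that order.

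The tested genes outside the 5 whose log2 CPM was most like summed globin, of 16012 compared, were *Pgm3*, *Gm7097*, *Gm17651*, *Mir1668*, *Brpf3*, *Gm44033*, *Ap5z1*, *Gm16096*, *Hoxc6* and *Sel1l3*, with Pearson's r from 0.989 to 0.973 over 6 libraries. *Alas2*, at 0.998, was closer than any of them. Their ranges were smaller: *Pgm3*, an enzyme of amino sugar synthesis, ran from 11.3 CPM in KO mouse 2 to 21.6 in KO mouse 1, and *Sel1l3* from 59.0 to 79.6. *Gm7097*, *Gm17651* and *Gm44033* had 0 counts in KO mouse 2. Over the 4 libraries without KO mice 1 and 2 their r ran from 0.698 to 0.971, so the likeness of several rests on those mice.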

How the data were processed

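The deposited read counts come from STAR alignments to GRCm38 (mm10), which the authors counted per gene symbol with featureCounts 1.6.4; strand was ignored and a read was counted for every gene whose exons it overlaps. Read length was not given in the sources used here. A second deposited table holds filtered counts (0 values differ) and log2 CPM, used as an alternative; its columns of the authors' comparison (fold change, F value and p) were not used. Genes with at least 2 counts in all and over 1 CPM in at least 2 libraries were kept (16017 of 55341), scaled by TMM and tested with edgeR 4.0.16 (quasi-likelihood, R 4.3.3), with Benjamini-Hochberg adjustment over all of them and a prior count of 0.125. CPM values printed per mouse are divided by total counts alone. Single genes were also compared by exact permutation (scipy 1.17.1). No source says more about the mice as replicates than that they are separate animals. Alternatives were the scaling, filter, prior count, limma 3.58.1 (voom, trend), DESeq2 1.42.0, the likelihood ratio test, robust shrinkage and each mouse left out. Named genes are the 5 genes, and of each list the members with an unadjusted p under 0.05 and the 3 highest in RPKM, with genes at or near 0. The values of some listed genes are not reported here. The members and lists were chosen with earlier results of these data known. Sequences are from RefSeq and transcripts from GENCODE M21.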

Additional observations from a re-analysis of the deposited data

How the results depend on the processing

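None of the 5 genes passed an adjusted p of 0.05 under any of the 18 alternatives, the lowest being 0.795 (*Hbb-bt*). The sign turned in 14 of the 90 values. With limma voom, *Hba-a2*, *Hbb-bs* and *Alas2* stood at -0.42, -0.35 and -0.81, and with limma trend on the deposited log2 CPM at -0.30, -0.27 and -0.49; both fit the mean of log values. With 1 mouse left out, the log2 fold change ranged from -0.99 to 0.41 for *Hba-a1*, -0.55 to 0.66 for *Hba-a2*, -0.41 to 0.72 for *Hbb-bs*, -1.31 to 0.13 for *Hbb-bt* and -0.64 to 0.84 for *Alas2*. The number of genes with an adjusted p under 0.05 was 1 in the reported fit, 57 with DESeq2, 19 with the likelihood ratio test, 3 with limma voom, 3 with robust shrinkage, 0 with the earlier quasi-likelihood method (added after seeing the data) and 0 to 82 with 1 mouse left out, 82 without KO mouse 3; the cause was not tested. The KO to WT ratio of summed globin ranged from 0.648 to 1.49 and that of alpha to beta globin, 0.892 in the reported comparison, from 0.811 to 1.01 with 1 mouse left out. No paired analysis was possible because the replicate numbers were given in accession order and pair no mice. With 3 mice a group, the precision is that of the printed intervals.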
